A study of Mus musculus with 8 samples.

Results

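The 40 genes described here encode proteins of the cell cycle and of DNA replication. They were chosen by name, with earlier results of these data known. They were found on the arrays through the RefSeq accession of each probe, with the brightest probe over all 8 arrays standing for the gene. All 40 had a probe, and 39 of them were among the 13608 genes tested. Cenpf, which encodes a kinetochore protein, was not well above background on any array and is given no value. A total of 38 members were well above background on all 8 arrays, and the remaining tested member, Ccne2, was on 6.

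The samples were pools of natural killer (NK) cells from mouse spleen, enriched magnetically and then sorted by a ChAT-eGFP reporter, in which green fluorescence marks cells expressing choline acetyltransferase, the enzyme that makes acetylcholine. There were 4 ChAT_positive pools, with the reporter signal, and 4 ChAT_negative pools, without it, and each pool combined cells of 2 to 4 mice. The age, sex and strain of the mice and any treatment are not given in the sources used here, nor is whether pools shared mice, so the p-values measure only the spread between these pools, which may be technical in part. All 4 ChAT_positive arrays lay on 1 slide and all 4 ChAT_negative arrays on another, each scanned separately, so the slide cannot be told apart from the reporter in any comparison below.

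Signals are log2 of the processed intensity minus the array's 75th percentile, so that 0 is the level of the probe at that percentile, and differences are ChAT_positive minus ChAT_negative. Between 50.2% and 63.2% of spots on an array were well above background. Chat itself had a log2 signal of 3.75 ± 0.25 in ChAT_positive and 2.65 ± 0.34 in ChAT_negative pools (SD, n = 4 each), a difference of 1.10 (SE 0.20; limma adjusted p = 0.0201), with no overlap between the groups (two-sided exact permutation p = 0.0286, the lowest value possible with 4 arrays a group). Its call was lost without ChAT_positive replicate 3 (limma adjusted p = 0.0625) or ChAT_negative replicate 4 (0.0648) and without the dim-probe filter (0.053). The 11 NK cell markers were well above background on every array.

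Cell type markers differed between the groups beside the cell cycle genes. Over all genes tested, limma called 2.81% higher and 3.15% lower at an adjusted p under 0.05. At an unadjusted p under 0.05, 12.9% were higher and 11.9% lower. Of the 11 NK cell markers, 3 were lower in ChAT_positive pools and 0 higher, with a median difference of -0.53 and a summed linear level (the sum of 2 to the power of each log2 signal) of 161 to 238 against 241 to 288. Of 10 tested B cell markers 6 were higher, with a summed level of 79.0 to 106 against 50.1 to 66.4, and of 6 tested type 17 lymphoid markers 5 were higher (summed level from 16.2 up, against at most 7.90). Of 7 tested basophil and mast cell markers 5 were lower, with a median of -4.04 (summed level 0.891 to 3.79 against 9.11 to 43.3), as were 2 of 7 platelet markers (3.02 to 8.05 against 7.34 to 22.1). Of 9 tested erythroid markers out of 14, 3 were lower, with a summed level of 24.0 to 25.4 against 34.7 to 49.6. Before adjustment at 0.05, 9 NK cell markers (81.8%) were lower and 0 higher. At that p 8 B cell and 6 type 17 markers were higher, and 7 basophil and mast cell, 3 platelet and 3 erythroid markers lower. The lists of immature NK cells, mature NK cells and dendritic cells had 1 gene called lower each (3, 3 and 1 lower before adjustment). The T cell, plasma cell and monocyte lists had 0 called by limma (before adjustment at 0.05, 0 T cell, 1 plasma cell and 3 monocyte genes). The part of these cells in the differences below was not tested.

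Passage through the cell cycle is driven by cyclins, which activate cyclin-dependent kinases in turn. In G1, the MCM helicase is loaded at replication origins, a step called licensing, and cyclin E with its kinase partner then helps to start S phase. Cyclin A and cyclin B with CDK1 carry the cell into mitosis, where the spindle, the kinetochores and the anaphase-promoting complex (APC/C) separate the chromosomes. The genes are transcribed in waves, the replication genes at the G1/S boundary, mainly through E2F factors, and the mitotic genes in G2 and M. The mitotic genes are controlled by the DREAM, MYB and FOXM1 complexes through CHR elements, and their promoters often also hold CCAAT boxes. NK cells in the spleen are mostly resting, and their precursors and activated cells divide. By this textbook timing 15 members were taken as G1/S genes and 25, of which 24 were tested, as G2/M genes.

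The promoters of 6 members are shown here as examples of the elements that define the G1/S and G2/M waves, from genes whose value on every array is given below. Each sequence is the 150 bases before the RefSeq transcription start, on the gene's strand, from a RefSeq table of the GRCm38.p6 assembly. Capitals mark matches on either strand to a CHR element (TTTGAA and its variant form TTCGAA), a box spelled CCAAT, or an E2F site. The E2F letters searched were TTTCGCGC, TTTGGCGC, TTTCCCGC and TTTGCCGC.
Cdk1 (chr10:69352913-69353062, minus strand): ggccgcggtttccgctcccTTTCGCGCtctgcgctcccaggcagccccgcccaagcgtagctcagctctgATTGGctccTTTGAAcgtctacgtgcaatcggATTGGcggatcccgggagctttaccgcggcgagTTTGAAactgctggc
Ube2c (chr2:164769779-164769928, plus strand): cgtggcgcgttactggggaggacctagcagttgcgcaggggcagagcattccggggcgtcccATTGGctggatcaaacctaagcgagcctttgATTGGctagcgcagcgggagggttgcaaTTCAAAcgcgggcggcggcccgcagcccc
Kif11 (chr19:37376232-37376381, plus strand): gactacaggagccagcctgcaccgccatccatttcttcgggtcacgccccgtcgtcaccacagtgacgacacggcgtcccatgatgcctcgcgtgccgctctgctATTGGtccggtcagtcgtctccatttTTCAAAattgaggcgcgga
Cenpa (chr5:30666736-30666885, plus strand): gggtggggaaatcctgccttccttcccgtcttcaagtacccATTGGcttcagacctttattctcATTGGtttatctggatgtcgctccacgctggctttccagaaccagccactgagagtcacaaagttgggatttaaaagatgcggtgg
Bub1b (chr2:118598061-118598210, plus strand): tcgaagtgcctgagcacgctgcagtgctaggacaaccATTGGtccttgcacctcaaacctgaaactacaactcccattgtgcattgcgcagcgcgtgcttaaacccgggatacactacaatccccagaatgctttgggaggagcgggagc
Mcm6 (chr1:128359706-128359855, minus strand): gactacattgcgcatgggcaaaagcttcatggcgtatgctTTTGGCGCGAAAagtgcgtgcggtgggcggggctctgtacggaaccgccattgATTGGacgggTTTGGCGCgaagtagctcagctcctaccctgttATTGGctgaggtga
The G2/M genes Cdk1, Ube2c and Kif11 each had a CHR match close to the start, with its first base 15, 29 and 19 bases before it, and 1 or more CCAAT boxes further upstream. Cdk1 also held an E2F match 131 bases before its start. The stretch shown for Mcm6, a helicase subunit, held no CHR match and 3 E2F matches, of which the pair at 110 and 106 bases before the start overlap. In Cenpa and Bub1b the stretch shown held CCAAT boxes, and the CHR matches lay outside it.

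A total of 33 members had a promoter in that table, in 34 windows of 300 bases (250 before to 50 after the start). Aurkb, Ccna2, Ccne2, Gins2, Kif20a, Mcm4 and Tpx2 were not matched. A CHR match was in 16 of the 21 G2/M windows (76.2%) and in 3 of the 13 G1/S windows (23.1%), against 19.2% of all 32851 windows in the table. An E2F match was in 5 of the 13 G1/S windows (38.5%) and 1 of the 21 G2/M windows (4.76%), that of Cdk1, against 2.26% of all windows. CCAAT boxes were in 85.7% of the G2/M and 76.9% of the G1/S windows, against 37.4% of all. These matches describe the letters of the promoters and not binding in these cells.

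The cell cycle genes as a group had similar signals in the pools with and without the reporter, and 1 of 39 passed the test. Ccne2, which encodes cyclin E2, was higher in ChAT_positive pools by limma's test (adjusted p under 0.05 over all genes), and no member was lower. Ccne2 was dim, above background on 4 ChAT_positive and 2 ChAT_negative arrays. It thus met the filter of 4 arrays only with the group where it was high. Its call was lost with a filter at 1 array (limma adjusted p = 0.0697). Across all genes tested, 5.95% were called, 2.81% higher (382 genes) and 3.15% lower (428). Scaling each array on its median moved the median difference of all genes to 0.24 and that of the members to 0.35. It moved the calls to 212 higher and 119 lower, with no member called. At an unadjusted p under 0.05, 3 members were higher (Ccne2, Bub1b and Aurkb) and 2 lower (Mcm5 and Cenpa), against 24.8% of all genes in either direction, 12.9% higher and 11.9% lower. The groups did not overlap for 3 members (Ccne2 and Bub1b higher, Cenpa lower), against 15.5% of all genes, 9.34% higher and 6.15% lower. The median difference over members was 0.13 on the log2 scale, beside 0.03 over all genes. A total of 28 members had the higher mean in ChAT_positive pools and 11 the lower, beside 7228 and 6380 of all genes. The other cell cycle genes described below gave 108 and 46. The members' median was 0.02 without ChAT_negative replicate 2, 0.06 without ChAT_positive replicate 4 and 0.05 without ChAT_positive replicate 3. In these bulk samples, fewer cells of a type and less RNA per cell cannot be told apart.

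The intervals below measure only the spread between pools of a group, under the scaling of the main test. They do not cover an effect of the slide or of the choice of scaling, so larger differences are not excluded. With median scaling the members' median difference was 0.35, beside 0.13 with the scaling used here. For 35 of the 39 tested members (89.7%) the 95% interval of the difference lay within 2-fold in both directions, as it did for 77.6% of all genes. The 4 members whose interval reached beyond 2-fold were Ccne2, Aurkb, Ccnb2 and Ube2c. The G1/S genes had a median difference of 0.13 and the G2/M genes one of 0.15. The G2/M median lost its sign when ChAT_negative replicate 2 was left out (-0.01). It was 0.03 without ChAT_positive replicate 4. The G1/S median was 0.04 without ChAT_positive replicate 3 and 0.08 without ChAT_negative replicate 1.

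**Figure D1:**
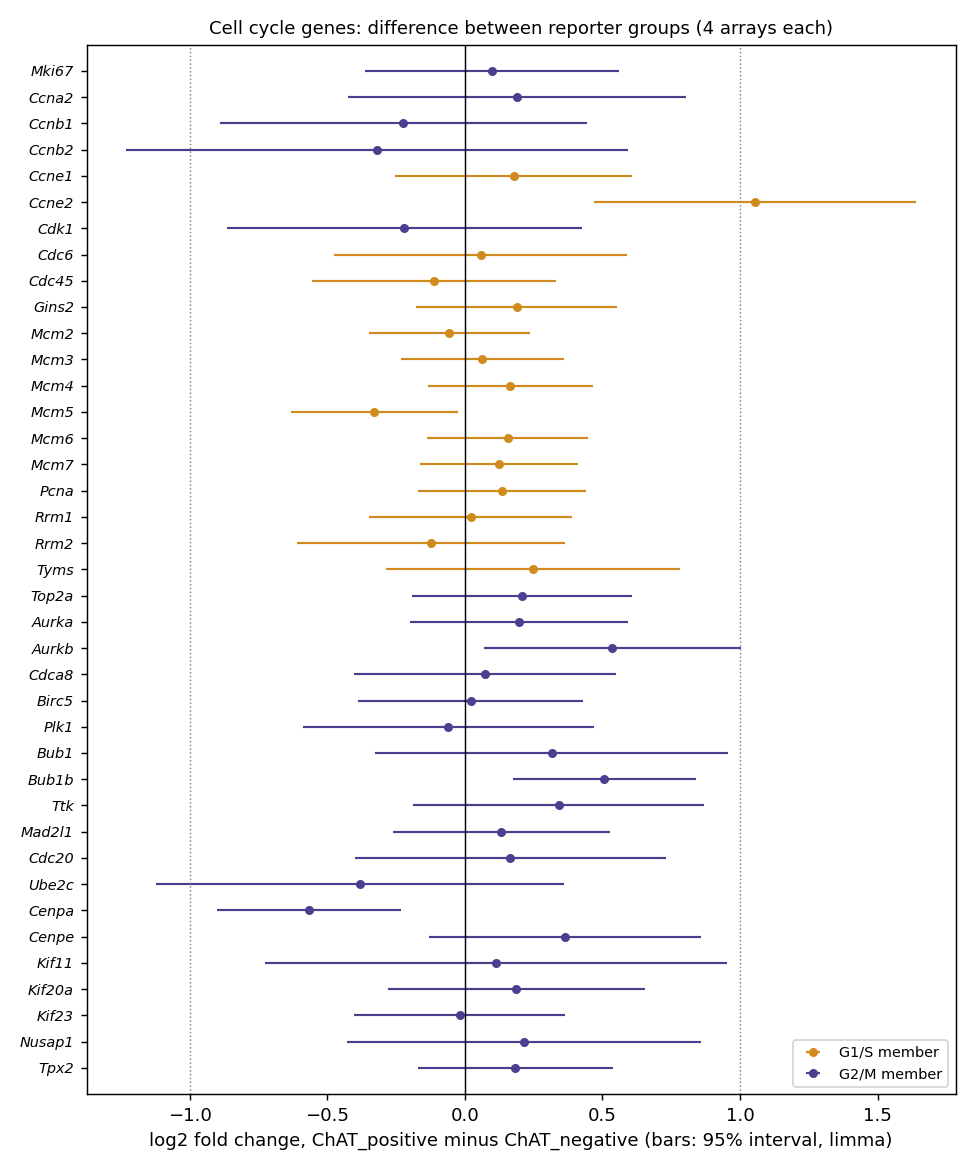
Each point is the log2 difference (ChAT_positive minus ChAT_negative, 4 arrays each) of 1 tested member, with its 95% limma interval as a bar; dotted lines mark 2-fold. Most intervals cross 0 and stay between the dotted lines, and Ccne2 lies farthest to the right with a difference of 1.05 and Cenpa farthest to the left with -0.57.

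Mki67, which encodes the Ki-67 antigen used to mark dividing cells, had nearly the same signal in both groups. It was 2.44, 2.18, 2.50 and 2.82 in ChAT_positive replicates 1 to 4 and 2.60, 1.91, 2.70 and 2.32 in ChAT_negative replicates 1 to 4. The groups overlapped over most of their range, and replicate 2 was the lowest array of each. The difference was 0.10 (SE 0.20, 95% interval -0.36 to 0.56, limma adjusted p = 0.801), and a second probe of the gene gave -0.06.

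Among the 5 cyclin genes, Ccne2 was the 1 gene called. Ccne2 signals were -4.65, -4.27, -4.39 and -3.74 in ChAT_positive replicates 1 to 4 and -5.01, -5.94, -4.97 and -5.35 in ChAT_negative replicates 1 to 4. Every ChAT_positive array was above every ChAT_negative array, and the gene was dim, being well above background on 4 ChAT_positive and 2 ChAT_negative arrays. The measured difference was 2.08-fold (95% interval 1.38 to 3.12; log2 difference 1.05, SE 0.26, limma adjusted p = 0.0486), and with normexp background correction it was 0.64 on the log2 scale (limma adjusted p = 0.0304). That call was lost without any single array, with limma adjusted p from 0.0562 to 0.116, and under 6 settings of the scaling, filter or variance (0.0597 to 0.101). The gene was not tested where all 8 arrays had to be above background. The size of its difference is uncertain, since only 2 ChAT_negative arrays had it well above background.

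Ccne1, for cyclin E1, was well above background on all arrays. Its signals were 0.70, 1.23, 1.47 and 1.35 in ChAT_positive and 0.72, 0.99, 1.24 and 1.10 in ChAT_negative pools. The groups overlapped, replicate 1 was the lowest array of both, and the difference was 0.18 (SE 0.19, limma adjusted p = 0.604). The second Ccne1 probe gave a difference of the opposite sign, -0.18. Whether Ccne1 and Ccne2 differed from each other in their response was not tested.

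The mitotic cyclins and their kinase varied more between pools than between groups. Ccnb2, for cyclin B2, was at -0.48, -1.43, -0.42 and 0.21 in ChAT_positive and 0.06, -1.20, 0.35 and -0.06 in ChAT_negative pools. Replicate 2 was far below the other arrays in both groups, and the difference of -0.32 (SE 0.40, 95% interval -1.23 to 0.59, limma adjusted p = 0.665) was smaller than the SD of 0.68 within either group. Cdk1, the kinase that drives entry into mitosis, was at -0.94, -0.99, 0.01 and -0.03 against -0.13, -0.70, 0.14 and -0.38. Its replicates 3 and 4 in ChAT_positive pools lay within the ChAT_negative range and its replicates 1 and 2 below it. The differences of Cdk1 (-0.22), Ccnb1 for cyclin B1 (-0.22) and Ccna2 for cyclin A2 (0.19) had limma adjusted p of 0.674, 0.677 and 0.703.

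No gene of origin licensing and firing passed the test. The 9 members are the 6 helicase subunits Mcm2 to Mcm7, the loading factor Cdc6, and Cdc45 and Gins2, whose products join the helicase when origins fire. Their differences ran from -0.33 to 0.19 with a median of 0.06. All 9 intervals lay within 2-fold. The range of a gene over the 8 arrays was 0.40 to 0.69 for the helicase subunits, 0.62 for Gins2, 0.86 for Cdc6 and 0.90 for Cdc45, beside a median of 0.80 for all genes. Mcm6 was at 4.04, 4.21, 4.36 and 3.96 in ChAT_positive and 4.04, 3.98, 3.82 and 4.11 in ChAT_negative pools, so the groups overlapped, with a difference of 0.16 (SE 0.13, limma adjusted p = 0.496). Mcm5 was the subunit with the lowest unadjusted p. It was at 2.66, 2.58, 2.96 and 2.75 against 3.02, 2.88, 3.10 and 3.27. ChAT_positive replicate 3 alone reached into the ChAT_negative range, and the difference of -0.33 (SE 0.13, 95% interval -0.63 to -0.03) did not pass the test (limma adjusted p = 0.17).

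The other 4 helicase subunits had differences between -0.06 (Mcm2) and 0.17 (Mcm4), with limma adjusted p from 0.478 to 0.826. Mcm2 was at 3.03, 3.18, 3.07 and 3.25 in ChAT_positive and 3.21, 3.03, 3.07 and 3.45 in ChAT_negative pools, overlapping throughout. Cdc6, Cdc45 and Gins2 differed by 0.06, -0.11 and 0.19, each by less than the larger of its 2 within-group SDs.

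The sliding clamp and the enzymes that supply deoxynucleotides gave no call either. Pcna, the clamp that holds polymerases on DNA, was at 4.17, 4.43, 4.66 and 4.20 in ChAT_positive and 4.24, 4.30, 4.17 and 4.20 in ChAT_negative pools. The ChAT_negative arrays spanned a narrow range (SD 0.06) and ChAT_positive replicates 2 and 3 lay above it, for a difference of 0.14 (SE 0.13, limma adjusted p = 0.571). Rrm1 and Rrm2, the subunits of ribonucleotide reductase, differed by 0.02 and -0.12. Tyms, which makes thymidylate, differed by 0.25 (SE 0.24, limma adjusted p = 0.555). Both Rrm1 and Rrm2 were lowest on replicate 1 in each group.

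Mitotic kinases and their passengers came next in the cycle, and none was called. Aurkb, the kinase of the chromosomal passenger complex, was at -1.86, -1.29, -0.91 and -1.33 in ChAT_positive and -1.92, -2.17, -1.67 and -1.78 in ChAT_negative pools. ChAT_positive replicates 2, 3 and 4 were above all ChAT_negative arrays and replicate 1 was not. The difference was 0.54 (SE 0.21, 95% interval 0.07 to 1.00, limma adjusted p = 0.151). Birc5 (survivin) and Cdca8 (borealin), which encode partners of Aurora B in that complex, differed by 0.02 and 0.07. Aurka, the spindle pole kinase, differed by 0.20. Plk1, a kinase of mitotic entry and exit, was at -1.33, -1.64, -1.23 and -0.93 against -1.10, -1.86, -0.92 and -1.02, with replicate 2 lowest in both groups and a difference of -0.06 (SE 0.23, limma adjusted p = 0.904). Top2a, the topoisomerase that untangles sister chromatids, was at 1.17, 1.23, 1.48 and 1.74 against 1.18, 0.85, 1.42 and 1.33, a difference of 0.21 (SE 0.18, limma adjusted p = 0.508) with overlapping groups.

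None of the member genes of the spindle checkpoint, which delays anaphase until the chromosomes are attached, was called. Bub1b, for the checkpoint protein BubR1, was at -0.83, -0.87, -0.59 and -0.47 in ChAT_positive and -1.14, -1.43, -0.96 and -1.25 in ChAT_negative pools. All ChAT_positive arrays lay above all ChAT_negative arrays. The difference was 0.51 (SE 0.15, 95% interval 0.18 to 0.84), with a limma adjusted p of 0.0753. It was called when the background was corrected with normexp (limma adjusted p = 0.0428). With the replicate number as a block it was called too (limma adjusted p = 0.0368), though that number is not known to pair the pools. The checkpoint kinases Bub1 and Ttk differed by 0.32 (SE 0.28, limma adjusted p = 0.532) and 0.34 (SE 0.23, limma adjusted p = 0.403), with overlapping groups. For Mad2l1, for the checkpoint protein MAD2, the 3 probes disagreed: the brightest gave 0.13, the next -0.97 and the third 0.20. No direction is read for that gene alone, though its brightest probe enters the counts and medians of the members. The value of that probe is also the members' median. With the mean of each gene's probes the members' median was 0.13 as well.

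Cdc20 and Ube2c act on the APC/C, the first as its activator and target of the checkpoint and the second as a ubiquitin-conjugating enzyme. Ube2c was at 0.91, 0.19, 0.66 and 1.31 in ChAT_positive and 1.66, 0.27, 1.36 and 1.31 in ChAT_negative pools. Replicate 2 was by far the lowest array of both groups, and the difference of -0.38 (SE 0.33, 95% interval -1.12 to 0.36, limma adjusted p = 0.511) did not pass the test. A second probe gave -0.49. Cdc20 differed by 0.17 (SE 0.25, limma adjusted p = 0.72).

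At the centromere, the 2 tested members had means that differed in opposite directions. Cenpa encodes the histone H3 variant that marks centromeres. Its signals were 2.52, 2.20, 2.28 and 2.08 in ChAT_positive and 2.91, 2.54, 2.87 and 3.01 in ChAT_negative pools. All ChAT_positive arrays lay below all ChAT_negative arrays, although ChAT_positive replicate 1 and ChAT_negative replicate 2 nearly met. The difference was -0.57 (SE 0.15, 95% interval -0.90 to -0.23), and it narrowly missed the threshold (limma adjusted p = 0.0566). It was called lower under 6 other settings of the same comparison, given here with their limma adjusted p. These were quantile scaling (0.0443), a percentile over detected probes (0.0453) and a filter at all 8 arrays (0.0452). The others were a trended and robust variance (0.0254), array weights (0.0429) and the replicate number as a block (0.0328). Cenpe, a kinetochore motor, differed by 0.36 (SE 0.22, limma adjusted p = 0.337).

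The motors and assembly factors of the spindle showed no difference that passed the test. Kif11, the motor that pushes spindle poles apart, was at -2.07, -2.41, -1.20 and -0.76 in ChAT_positive and -2.01, -2.08, -1.14 and -1.65 in ChAT_negative pools. Its replicates 1 and 2 were the lowest arrays of both groups. The difference of 0.11 (SE 0.37, limma adjusted p = 0.883) was small beside the SD of 0.76 within the ChAT_positive pools. Kif20a and Kif23, motors of cytokinesis, and Nusap1 and Tpx2, which organise spindle microtubules, differed by 0.19, -0.02, 0.22 and 0.18.

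**Figure D2:**
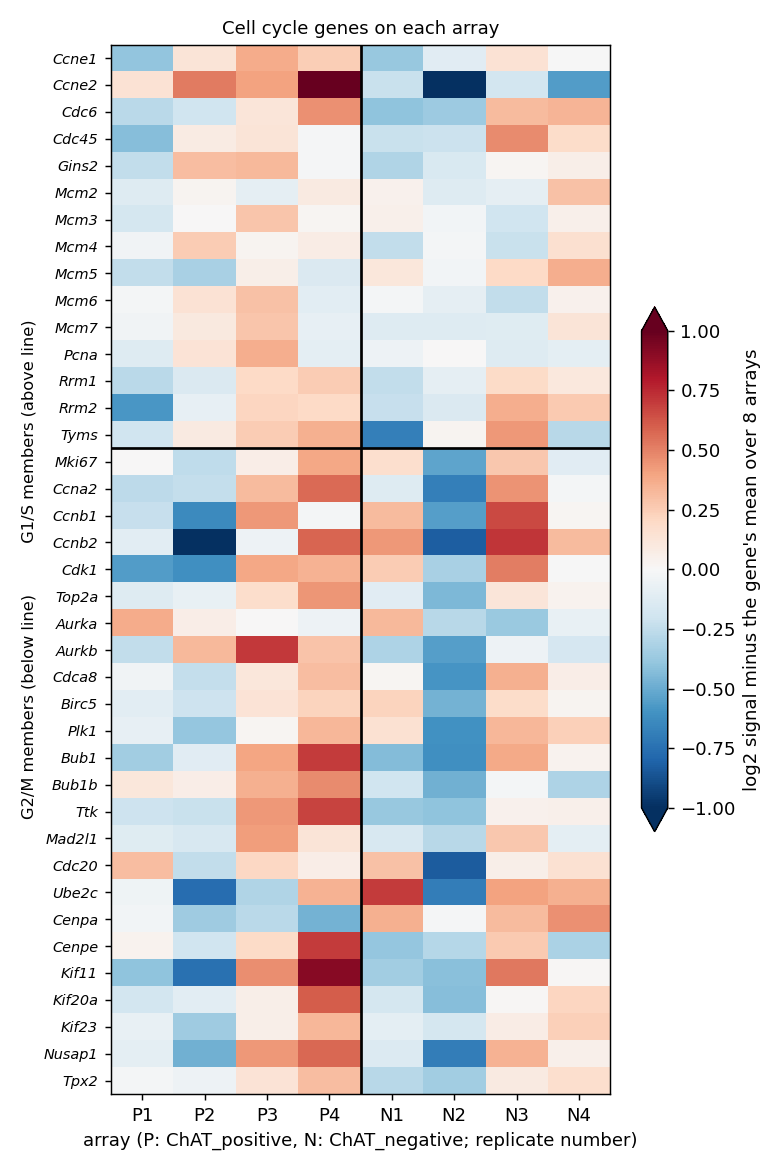
Colour gives each tested member's log2 signal on each array minus its mean over the 8 arrays, from -1 to 1, with G1/S genes above the horizontal line and G2/M genes below it. The columns of replicate 2 are blue for most G2/M genes in both groups, and the G1/S genes are palest in the Mcm genes.

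Pools of 1 group differed from each other across the G2/M genes. Of the 24 tested G2/M genes, 22 (91.7%) were lowest of their group on ChAT_negative replicate 2, against 27.4% of all genes, and 17 (70.8%) were lowest on ChAT_positive replicate 2, against 21.2% of all genes. ChAT_positive replicate 4 was the highest of its group for 17 (70.8%, against 14.8% of all genes) and ChAT_negative replicate 3 for 15 (62.5%, against 17.9%). The mitotic genes were thus low or high together on single arrays. The median deviation of the G2/M genes from their own mean was -0.10, -0.24, 0.19 and 0.35 on ChAT_positive replicates 1 to 4 and -0.11, -0.48, 0.27 and 0.04 on ChAT_negative replicates 1 to 4. Over all genes it stayed between -0.07 and 0.07.

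The G1/S genes ranked the arrays in another order. They were lowest on replicate 1 of each group, for 12 of 15 (80.0%, against 21.3% of all genes) in ChAT_positive and 9 of 15 (60.0%, against 23.8%) in ChAT_negative pools. Their highest arrays were ChAT_positive replicate 3, for 9 genes, and ChAT_negative replicate 4, for 8. The range of a gene over the 8 arrays had a median of 1.06 for the G2/M genes, 0.62 for the G1/S genes and 0.80 for all genes. Within groups, the SD of the array medians was 0.29 for the G2/M and 0.17 for the G1/S genes.

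Marker levels also differed between these arrays. Neutrophil and precursor markers, 10 tested of 12, had median deviations of -1.42, -3.28, 0.33 and 0.28 on ChAT_positive and 1.88, -0.70, 1.51 and 1.61 on ChAT_negative replicates 1 to 4. The lowest array of each group was again replicate 2. Their summed linear level ran from 3.43 to 36.7 in ChAT_positive and from 22.1 to 68.5 in ChAT_negative pools, and 2 were called lower, Mpo and Ctsg. Erythroid markers had median deviations of 0.03, -1.55, -0.40 and -0.15 against 1.37, -0.51, 0.49 and 0.35, lowest on replicate 2 as well. Their summed level was not lowest there, at 25.4 on ChAT_positive and 41.0 on ChAT_negative replicate 2. Germinal centre B cell markers, 4 tested of 6, had 0 genes called by limma (before adjustment, 2 were higher and 1 lower at 0.05) and a median difference of 0.62. Their array medians were lowest on ChAT_negative replicate 2 (-0.58) but on ChAT_positive replicate 1 (-0.07). Basophil, platelet and plasma cell markers were also lowest on replicate 2 of each group. For the plasma cell markers the median deviations there were -0.57 on the ChAT_positive and -0.90 on the ChAT_negative array. NK cell markers ran the other way and were highest there, with median deviations of 0.10 on ChAT_positive and 0.51 on ChAT_negative replicate 2, as were T cell markers (0.02 and 0.27). In ChAT_positive pools the neutrophil median was highest on replicate 3 (0.33), close to replicate 4 (0.28). In ChAT_negative pools the highest array depended on the measure, being replicate 1 by median and replicate 4 by summed level (68.5, against 67.5 on replicate 1). The G2/M median was highest on ChAT_positive replicate 4 and ChAT_negative replicate 3. The part of these cells in the G2/M pattern was not tested.

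**Figure D3:**
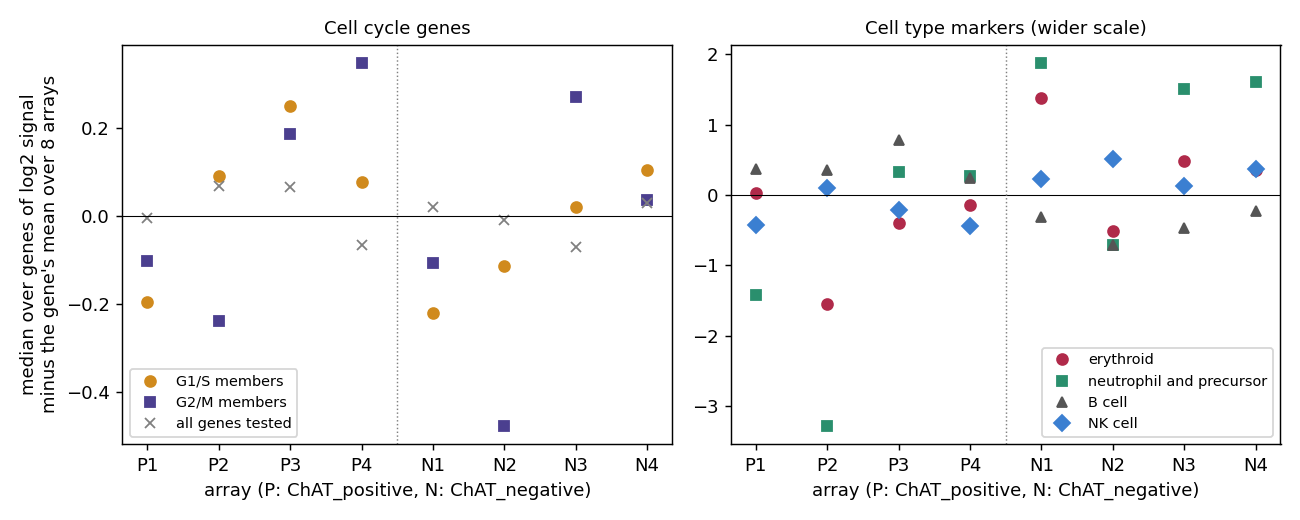
Points are medians over genes of the log2 signal minus the gene's mean over the 8 arrays, for the G1/S genes, G2/M genes and all genes (left) and for cell type markers (right, wider scale). The G2/M genes and the neutrophil and erythroid markers are lowest on replicate 2 within each group, where the NK cell markers are highest, and the median of all genes stays near 0.

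Other cell cycle genes, from 7 lists of 157 genes that are not members, also had few calls, 3 in number. Of 154 tested, 2 were higher (Chaf1a and Cdkn2a) and 1 lower (Btg2). With no adjustment of p 26 (16.9%) were higher and 8 (5.19%) lower at 0.05. All genes gave 12.9% and 11.9% there, and the members 7.69% and 5.13%. The median difference was 0.13, and it was 0.07 without ChAT_positive replicate 3 and 0.08 without ChAT_negative replicate 2. The groups did not overlap for 19 genes that were higher (12.3%, against 9.34% of all genes) and 2 that were lower (1.30%, against 6.15%). Kif14 and Ncapg were not tested and Anapc10 was above background on no array.

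Cdkn2a encodes the INK4A and ARF proteins, which hold cells back from S phase and activate p53. It was at -0.12, -0.76, -0.13 and -0.47 in ChAT_positive and -1.56, -2.00, -1.75 and -2.61 in ChAT_negative pools, with no overlap. It was 3.05-fold higher (95% interval 2.08 to 4.48; log2 difference 1.61, SE 0.24, limma adjusted p = 0.0114), and this call held whichever single array was left out. A second probe gave a difference of 2.17, but it was dim and well above background on only 4 arrays. Its mean log2 signal was -4.14 in ChAT_positive and -6.31 in ChAT_negative pools. The size of its difference is therefore uncertain, since it rests on signals near background.

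Btg2, an antiproliferative gene, was the 1 gene lower. Its signals were 1.15, 1.35, 1.10 and 1.16 against 1.74, 2.20, 2.23 and 1.98, with all ChAT_positive arrays below all ChAT_negative ones. It fell by 0.85 on the log2 scale (SE 0.14, limma adjusted p = 0.0155), a call lost without ChAT_positive replicate 3 (0.0518) and with median scaling (0.128). Both calls stand in a list of 12 CDK inhibitors and quiescence genes, whose median difference was -0.30, and before adjustment 4 of them were higher and 6 lower at 0.05 (24.8% of all genes in either direction).

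Chaf1a, a subunit of the chromatin assembly factor that places histones on new DNA, was at 1.15, 1.39, 1.39 and 1.17 in ChAT_positive and 0.53, 0.63, 0.84 and 0.66 in ChAT_negative pools. The groups did not overlap, and it was 1.53-fold higher (95% interval 1.27 to 1.85; log2 difference 0.61, SE 0.12, limma adjusted p = 0.0258). The call was lost when any 1 array other than ChAT_positive replicate 4 or ChAT_negative replicate 3 was left out (limma adjusted p up to 0.0782), under normexp (0.0971), with median scaling (0.0742) and without the dim-probe filter (0.0683). It was the 1 call among 29 tested replication fork genes, which had a median of 0.14 and 8 genes higher at an unadjusted p under 0.05 (12.9% of all genes). That median was 0.07 without ChAT_positive replicate 3 or ChAT_negative replicate 1.

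**Figure D4:**
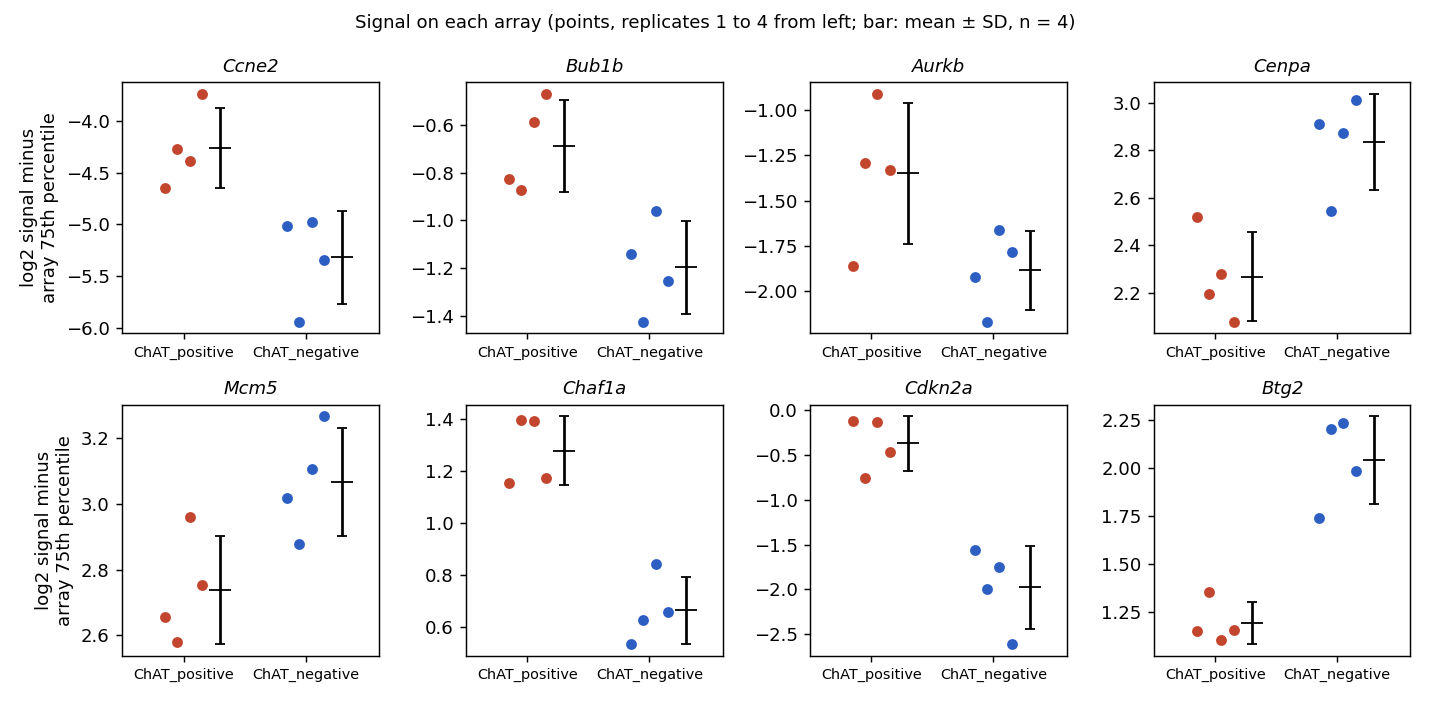
Points are the log2 signals of 8 genes on each array (red ChAT_positive, blue ChAT_negative; replicates 1 to 4 from left), and bars are mean ± SD (n = 4). The groups are apart for Ccne2, Bub1b, Cenpa, Chaf1a, Cdkn2a and Btg2 and overlap for Aurkb and Mcm5.

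In the other 5 lists no gene was called by limma. At an unadjusted p under 0.05, 12.9% of all genes were higher and 11.9% lower. The 19 further origin licensing genes had the highest list median, 0.19, with 5 (26.3%) higher at that p. Their brightest members, Gins3 and Cdt1, differed by -0.17 and 0.10. The 16 E2F, DREAM and FOXM1 regulators had a median of 0.13 (2 higher at that p, 12.5%), with Tfdp1 and E2f6 brightest at 0.02 and 0.24. The 53 further mitotic genes had a median of 0.13 (4 higher, 7.55%, and 1 lower, 1.89%), with Bub3 and Cks1b at -0.03 and 0.08. The 15 APC/C genes had one of 0.11 (2 higher, 13.3%), with Anapc5 and Cdc27 at 0.11 and -0.17. The 10 G1 cyclins, CDKs and CDC25 phosphatases had one of -0.02 (1 higher and 1 lower, 10% each), with Ccnd2 for cyclin D2 and Cdk4, its partner, at 0.04 and -0.01.

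Several of these medians moved with single arrays. That of the mitotic genes was 0.04 without ChAT_positive replicate 4 or ChAT_negative replicate 2, 0.22 without ChAT_positive replicate 1, 0.25 without ChAT_positive replicate 2 and 0.21 without ChAT_negative replicate 3. That of the E2F, DREAM and FOXM1 regulators was 0.05 without ChAT_positive replicate 3 and 0.23 without ChAT_positive replicate 1. The APC/C median was 0.18 without ChAT_positive replicate 4 and 0.17 without ChAT_negative replicate 4. The median of the G1 cyclins, CDKs and CDC25 phosphatases changed sign without ChAT_positive replicate 1 (0.03) or 2 (0.02) or ChAT_negative replicate 3 (0.02). It was -0.10 when ChAT_positive replicate 3, ChAT_positive replicate 4 or ChAT_negative replicate 2 was dropped. The median of the further origin licensing genes stayed between 0.15 and 0.23.

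**Figure D5:**
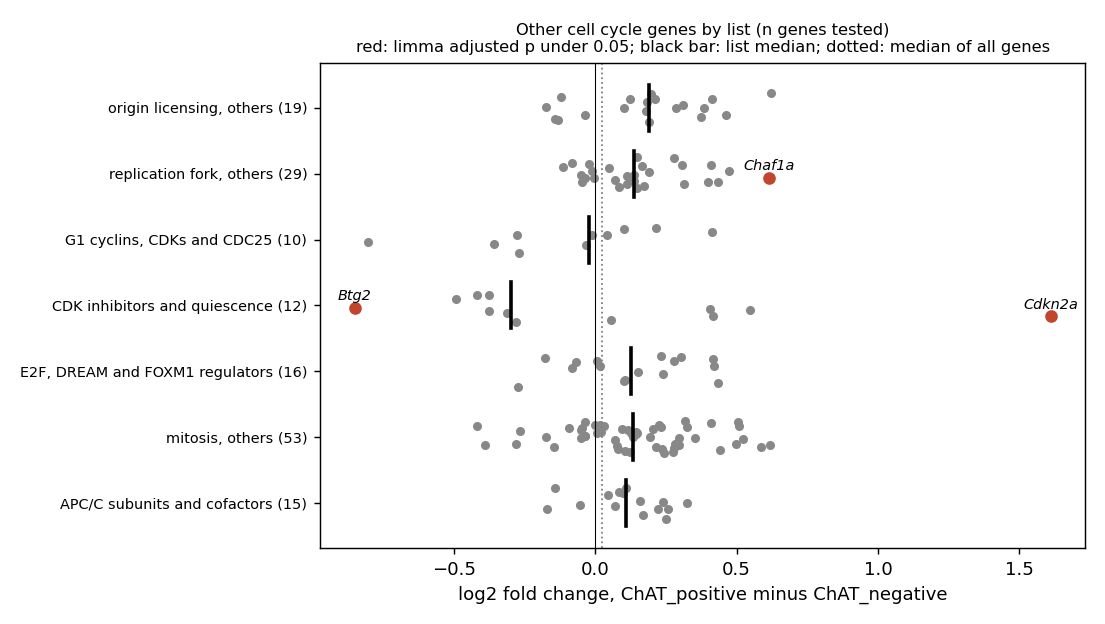
Each point is the log2 difference (ChAT_positive minus ChAT_negative) of 1 cell cycle gene outside the 40 members, by list, with the list median as a black bar and the median of all genes as a dotted line. The called genes, in red, are Chaf1a, Cdkn2a and Btg2, and list medians run from -0.30 to 0.19.

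The further mitotic genes and the E2F, DREAM and FOXM1 regulators ranked the arrays much as the G2/M members did. Their array medians were lowest on replicate 2 in both groups, at -0.11 and -0.30 for the mitotic genes and -0.21 and -0.29 for the regulators. In ChAT_positive pools the mitotic median was nearly as low on replicate 1 (-0.10). The summed levels in that group were lowest on replicate 1 for both lists, at 92.2 and 21.4, against 94.9 and 21.7 on replicate 2. These lists share arrays and scaling with the members, so the likeness is a description with no test.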

How the data were processed

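RNA from 8 pools of sorted mouse spleen NK cells was measured on 1-colour (Cy3) Agilent arrays. The deposited spot intensities are linear values from Agilent Feature Extraction 11.5.1.1, with the background already subtracted within the array and no scaling across arrays, per the file headers. A deposited table of log2 values for 31942 probes followed log2 of the processed intensity minus a constant that lay close to each array's 75th percentile (largest gap -0.0065), with column medians from -0.72 to -0.63. It is not centred per gene, and the rule that chose its probes is unknown here.

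Of 62976 spots per array, 59305 were not controls and formed 55681 probes, with the spots of a probe averaged. Spots marked as outliers (1293 values) were dropped, except for 51 probe values that had no other spot. A probe's RefSeq accession, without version, named 26762 probes through a GRCm38.p6 table, and 28919 stayed unnamed here. The 75th percentile of non-control probes scaled each array. A probe was kept if at least 4 of the 8 arrays had it well above background (32087 probes), and the brightest probe stood for its gene (13608 genes). Among the members, 10 had several probes. No spot was saturated (0 on every array), and the number of arrays limits the precision.

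The test was limma 3.58.1 under R 4.3.3: lmFit, then eBayes, two-sided, with Benjamini-Hochberg adjustment across the 13608 genes and a threshold of 0.05. Slide and scan could not be a block, since each held 1 group. The procedure was tested on simulated data. The members, the other lists and the alternatives were chosen with earlier results of these data known. The names printed are the 40 members, Chat, and the called genes of each other cell cycle list or its 2 brightest genes where none was called. Kif14, Ncapg and Anapc10 are named as not tested, and Mpo and Ctsg were chosen after their values were seen. Alternatives varied the background correction (normexp on the median spot signal), the scaling, the filter, the probe, the variance model and the threshold, weighted or blocked the arrays, took the deposited table, or left arrays out.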

Additional observations from a re-analysis of the deposited data

Results flagged for a closer look

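Among the 39 tested members, Chat and the 3 other called cell cycle genes, 86 groups of 4 arrays were examined for an array far from the other 3, and 2 were marked; chance marks about 1 in 20 groups. Mcm7, a helicase subunit, had a log2 signal of 4.03 on ChAT_negative replicate 4, against 3.77 to 3.78 on the other 3 arrays of its group (gap over range 0.98). Cenpe, a kinetochore motor, was at -0.22 on ChAT_negative replicate 3, against -0.87 to -0.76 on the others (gap over range 0.84).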

How the results depend on the processing

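Ccne2, Chaf1a, Cdkn2a, Btg2 and Chat kept their direction in every alternative that tested them. Of the 39 tested members, 22 kept the sign of their difference in all 22 alternative settings, Ccne2 kept it in the 21 that tested it, 16 changed it at least once, and 36 were called in none. The cause of the changes below was not tested. Where 0 members were called higher, the same held for the G1/S genes, and a member called lower was always a G2/M gene.

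With median scaling the calls over all genes were 212 higher and 119 lower, 0 members were higher, the G1/S median was 0.34 (all genes 0.24), and of the other cell cycle genes 1 was higher and 0 lower. Quantile scaling gave 0 members higher and 1 lower, and 4 other genes higher and 2 lower. The percentile over detected probes, the filter at all 8 arrays and the trended robust variance each gave 0 higher and 1 lower among members. A filter at 1 array gave 0 higher. With no filter the calls were 98 higher and 126 lower, with 0 members and 1 other gene higher. Normexp gave 2 members higher, of which 1 was a G2/M gene. Array weights gave 577 genes higher, with 1 member and 2 other genes lower. At an adjusted p under 0.1, calls were 866 higher and 837 lower, 2 members higher (1 G2/M) and 1 lower, and 10 other genes higher and 2 lower. Leaving out 1 array at a time gave 94 to 305 genes higher and 116 to 429 lower, 0 members or G1/S genes called, and 1 to 2 other genes higher and 0 to 2 lower, with the members' median between 0.02 and 0.18. Without both arrays numbered 3, 21 genes were higher and 35 lower, with 0 members and 0 other genes called higher or lower; Cdkn2a then had an adjusted p of 0.0874. Without both arrays numbered 2, chosen after seeing the data, 193 genes were higher, with 0 members and 1 other gene higher.

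The replicate number is not known to pair the pools. Same-numbered arrays deviated together with correlations of 0.54, 0.66, 0.52 and 0.03. ChAT_positive replicates 1, 2 and 3 each correlated best with the same-numbered ChAT_negative array, and replicate 4 with ChAT_negative replicate 3. With the replicate number as a block, 1002 genes were higher and 1344 lower. Among members 2 were then higher (Ccne2 and 1 G2/M gene, Bub1b) and 1 lower (Cenpa, adjusted p = 0.0328), and among the other genes 11 were higher and 3 lower. Dim signal limits Ccne2, which was above background on 2 of 4 ChAT_negative arrays.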
